A study of Mus musculus with 5 samples.

Results

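The genes described are 9 genes of LIF and STAT3 signaling, chosen by their symbols: Lif, Lifr, Il6st, Jak1, Jak2, Stat3, Socs3, Pim1, and Gbx2. All 9 were found among the 24421 genes listed in the RNA-seq tables, with a value in each of the 5 libraries. The choice used no measured value, but it was made with earlier results of these data known.

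The study examined the glycine cleavage system, whose decarboxylase is Gldc, in pluripotent stem cells. RNA was sequenced from mouse embryonic fibroblasts (MEFs), induced pluripotent stem cells (iPSCs), and V6.5 cells, a hybrid mouse embryonic stem cell (mESC) line. A second pair of libraries came from V6.5 cells stably expressing a non-targeting control hairpin (NTC) or a hairpin against Gldc (shGldc). Each of the 5 groups was 1 library, so there was no replicate error, no test was possible, and every difference below is a difference between libraries.

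The V6.5, NTC, shGldc, and iPSC libraries share a medium that already contained the ligand of this pathway, mouse LIF at 1000 U/ml, with 15% KnockOut Serum Replacement and 1% FBS, on gelatin without feeder cells, as the labels describe the culture. The study's methods also describe a culture on feeder cells in which FBS replaced the serum replacement, without saying which was sequenced. The MEF medium contained 10% FBS, and no LIF is listed for it. The medium and the cell type therefore cannot be told apart in any comparison with MEFs. The study's methods obtained MEFs from CF-1 embryos. They describe both iPS cell lines bought from a cell bank and mouse iPSCs induced with retroviral vectors for Oct4, Sox2, Klf4, and Myc, and the labels do not say which of these was sequenced. The shGldc column is headed with hairpin number 3, whose sequence was not identified here. The NTC and shGldc libraries were deposited in a separate table from the other 3, so a ratio of either to V6.5 crosses tables that were made separately.

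LIF, a cytokine of the interleukin-6 family, binds a receptor made of LIFR and the shared signaling chain gp130, which Il6st encodes. JAK kinases bound to that receptor phosphorylate STAT3, which then enters the nucleus and switches on its targets, including Socs3, an inhibitor that feeds back on the receptor and its kinases. In mESCs this pathway sustains self-renewal and is the reason LIF is added to their medium. RNA-seq measures the mRNA of these genes and not the phosphorylation of STAT3.

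The unit is FPKM, which counts fragments relative to transcript length and to each 1000000 mapped, so levels can be compared between genes per length. Log2 ratios are of FPKM + 0.1. A gene entered a comparison if it reached 1 FPKM in one or both libraries, and higher or lower in a count means at least 2-fold on that scale. The depth recovered from the steps between low values, in units of 1000000 fragments, was about 14.4 for NTC and shGldc and 22.2 to 24.7 for the others. For NTC and shGldc a depth of 28.7 to 29.0 in these units was also possible. For shGldc that depth matched more of the low values (36 against 29), and the smaller depth was used for both libraries, which widens their intervals. Intervals are 95% exact intervals on the approximate fragment numbers behind a fold, and they cover counting error only. Fragment numbers were computed from FPKM, depth, and the length of the gene's longest coding transcript. Where shorter transcripts were expressed, these numbers are too high and the intervals too narrow.

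The labels were checked against Gldc and cell type markers. Gldc was at 74.7 FPKM in NTC and 2.07 in shGldc. The summed FPKM of 6 pluripotency markers was 3.03 in MEFs and 3496 to 6551 in the other 4 libraries. The sum of 7 fibroblast markers was 9171 in MEFs and 7.8 to 69.2 in the others, with V6.5 highest among them (Col1a1 20.5, Acta2 19.3). The part of fibroblast RNA in the V6.5 values was not tested. The MEF library also held macrophage markers, summing to 159.1 over 7 genes (C1qa 52.7, Csf1r 11.1), against 9.35 to 20.6 elsewhere, where Cd68 was the single marker of at least 1 FPKM. In bulk RNA, fewer cells of a type and less RNA per cell cannot be told apart.

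Il6st, Jak1, and Jak2 were at least 2-fold higher in MEFs than in V6.5 and than in iPSCs, and Socs3, Pim1, and Gbx2 were at least 2-fold lower in MEFs. Stat3 was at least 2-fold higher in MEFs than in V6.5 but not than in iPSCs, and Lif and Lifr differed by under 2-fold from both. In V6.5 over MEFs, 3 of the 9 genes were at least 2-fold higher, beside 30.3% of the 12840 genes compared, and 4 were at least 2-fold lower, beside 23.3%. In iPSCs over MEFs, 3 were higher, beside 31.5% of 13032 genes, and 3 were lower, beside 21.3%. These comparisons share the MEF library. Changes of this size were common among all genes, and the members' median log2 ratio was -0.38 and -0.08, beside 0.25 and 0.31 for all genes.

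Between the pluripotent libraries the genes lay closer together. In iPSCs over V6.5, 1 of the 9 was at least 2-fold higher, beside 10.1% of 12323 genes, and 0 were lower, beside 7.44%. In shGldc over NTC, 1 was higher, beside 8.97% of 11969 genes, and 3 were lower, beside 7.68%. In NTC over V6.5, which differ by the hairpin vector and the table, 1 of 8 was higher, beside 4.99% of 12048 genes, and 1 was lower, beside 10.3%. In shGldc over V6.5, 1 of 9 was higher, beside 9.89% of 12237 genes, and 1 was lower, beside 13.9%. The last 3 comparisons share libraries with each other.

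**Figure D1:**
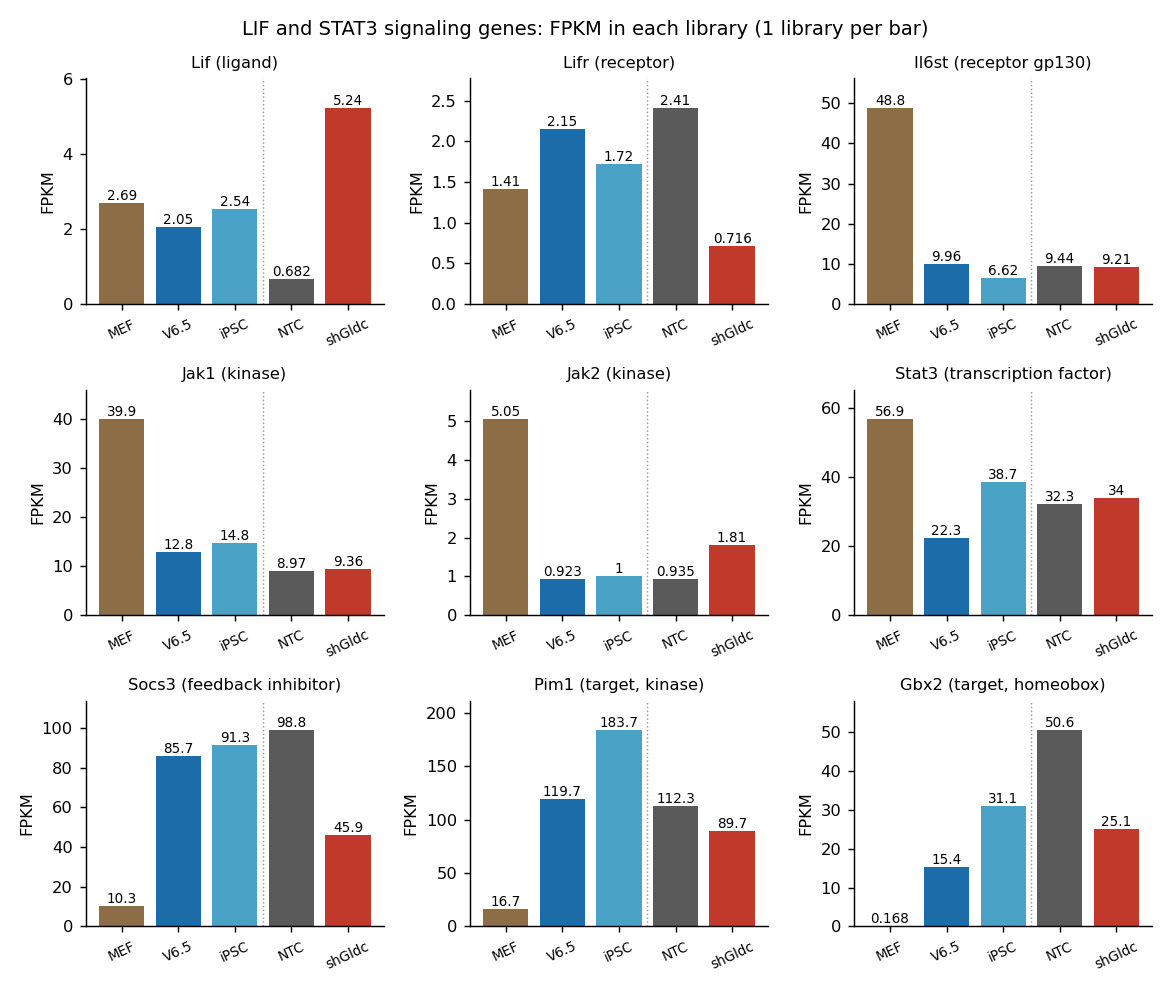
FPKM (vertical axes, each from 0 and with its own scale) of the 9 LIF and STAT3 signaling genes in 5 libraries, 1 library per bar, with a dotted line between the separately made tables. MEFs hold the tallest bar for Il6st, Jak1, Jak2, and Stat3 and the shortest for Socs3, Pim1, and Gbx2, and Lif is lowest in NTC (0.682) and highest in shGldc (5.24).

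As a yardstick for the order of levels, NTC and V6.5, which are the same cell line, differed with a robust SD of 0.59 in log2 ratio over all genes compared. It includes the hairpin vector and the separate tables and is not a replicate error. Neighbours in an order of levels that lie less than 0.59 apart are called close.

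Lif encodes the ligand itself (ENSMUSG00000034394, mm10 chr11:4257557-4272514, plus strand). Its level was 2.69 FPKM in MEFs, 2.05 in V6.5, 2.54 in iPSCs, 0.682 in NTC, and 5.24 in shGldc. MEFs, iPSCs, and V6.5 were close, NTC was below them, and shGldc was above them. The shGldc level was 7.69-fold that of NTC (interval 5.46 to 10.9), a log2 ratio of 2.77 that ranked 207 of 11969 genes from the top. About 40 fragments stood behind the NTC value and 305 behind that of shGldc, and with a pseudocount of 1 the log2 ratio was 1.89. Both control libraries matter for the size of this difference, since NTC was itself 3.0-fold below V6.5 (interval 2.11 to 4.28). Against V6.5, shGldc was 2.56-fold higher (interval 2.14 to 3.08). Lif mRNA was thus detected in all 4 libraries whose medium also held LIF protein.

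The receptor chains differed from each other in where they were high. Lifr, the LIF-binding chain (ENSMUSG00000054263, chr15:7090614-7197489, plus strand), was at 1.41 FPKM in MEFs, 2.15 in V6.5, 1.72 in iPSCs, 2.41 in NTC, and 0.716 in shGldc. Only shGldc stood apart from its neighbour in this order, at the low end. It was 3.36-fold below NTC (interval 2.68 to 4.24), a log2 ratio of -1.62 that ranked 437 of 11969 from the bottom, and 3.0-fold below V6.5 (interval 2.41 to 3.75). About 335 fragments stood behind the NTC value and 100 behind that of shGldc, and with a pseudocount of 1 the log2 ratio was -0.99, just under 2-fold. Lif and Lifr were thus the members with the highest and the lowest ratio in shGldc over NTC.

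Il6st (ENSMUSG00000021756, chr13:112464070-112510086, plus strand), the gp130 chain that most receptors of the cytokine family share, was at 48.8 FPKM in MEFs, 9.96 in V6.5, 6.62 in iPSCs, 9.44 in NTC, and 9.21 in shGldc. The 4 pluripotent libraries were close and MEFs stood above them. V6.5 was 4.9-fold below MEFs (interval 4.67 to 5.13) and iPSCs were 7.37-fold below (interval 6.95 to 7.82). The log2 ratio of shGldc over NTC was -0.04. Il6st was the more abundant chain per length in every library, but the excess varied. The ratio of Il6st to Lifr FPKM was 34.5 in MEFs, 4.63 in V6.5, 3.84 in iPSCs, 3.93 in NTC, and 12.9 in shGldc. In MEFs the large ratio came with high Il6st, and in shGldc it came with low Lifr.

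Both member kinases were highest in MEFs. Jak1 (ENSMUSG00000028530, chr4:101152367-101265282, minus strand), a kinase that gp130 receptors use, was at 39.9 FPKM in MEFs, 12.8 in V6.5, 14.8 in iPSCs, 8.97 in NTC, and 9.36 in shGldc. Each pluripotent library was close to its neighbour, although not the lowest to the highest, and MEFs stood above them. V6.5 was 3.13-fold and iPSCs were 2.71-fold below MEFs, and the log2 ratio of shGldc over NTC was 0.06. Jak2 (ENSMUSG00000024789, chr19:29251828-29313080, plus strand), which also associates with gp130, was at 5.05 FPKM in MEFs, 0.923 in V6.5, 1.0 in iPSCs, 0.935 in NTC, and 1.81 in shGldc. V6.5 was 5.47-fold and iPSCs were 5.04-fold below MEFs. The shGldc value stood above the other 3 pluripotent libraries, at 1.93-fold that of NTC, but the interval of 1.42 to 2.62 reached to both sides of 2-fold and rested on about 131 and 68 fragments. In NTC over V6.5, Jak2 was under 1 FPKM in both libraries and was not counted. Jak1 exceeded Jak2 per length in every library, by 7.91 times in MEFs, 13.8 in V6.5, 14.7 in iPSCs, 9.59 in NTC, and 5.19 in shGldc.

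Stat3 (ENSMUSG00000004040, chr11:100885098-100939540, minus strand), the transcription factor of the pathway, had the narrowest range of the 9 genes. Its level was 56.9 FPKM in MEFs, 22.3 in V6.5, 38.7 in iPSCs, 32.3 in NTC, and 34.0 in shGldc. Each neighbour in this order was close to the next, although the highest was 2.55 times the lowest. V6.5 was 2.55-fold below MEFs (interval 2.45 to 2.66), while iPSCs were 1.47-fold below MEFs and 1.74-fold above V6.5. The log2 ratio of shGldc over NTC was 0.07, a 1.05-fold difference with an interval of 0.999 to 1.11. Of Stat3's exon bases 0.756% overlap Stat5a on the opposite strand (1.94 to 5.55 FPKM outside MEFs), and strand use in the counting is not given in the sources used here.

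For Il6st, Jak1, Jak2, and Stat3 the part of the macrophage markers of the MEF library in the higher MEF level was not tested.

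**Figure D2:**
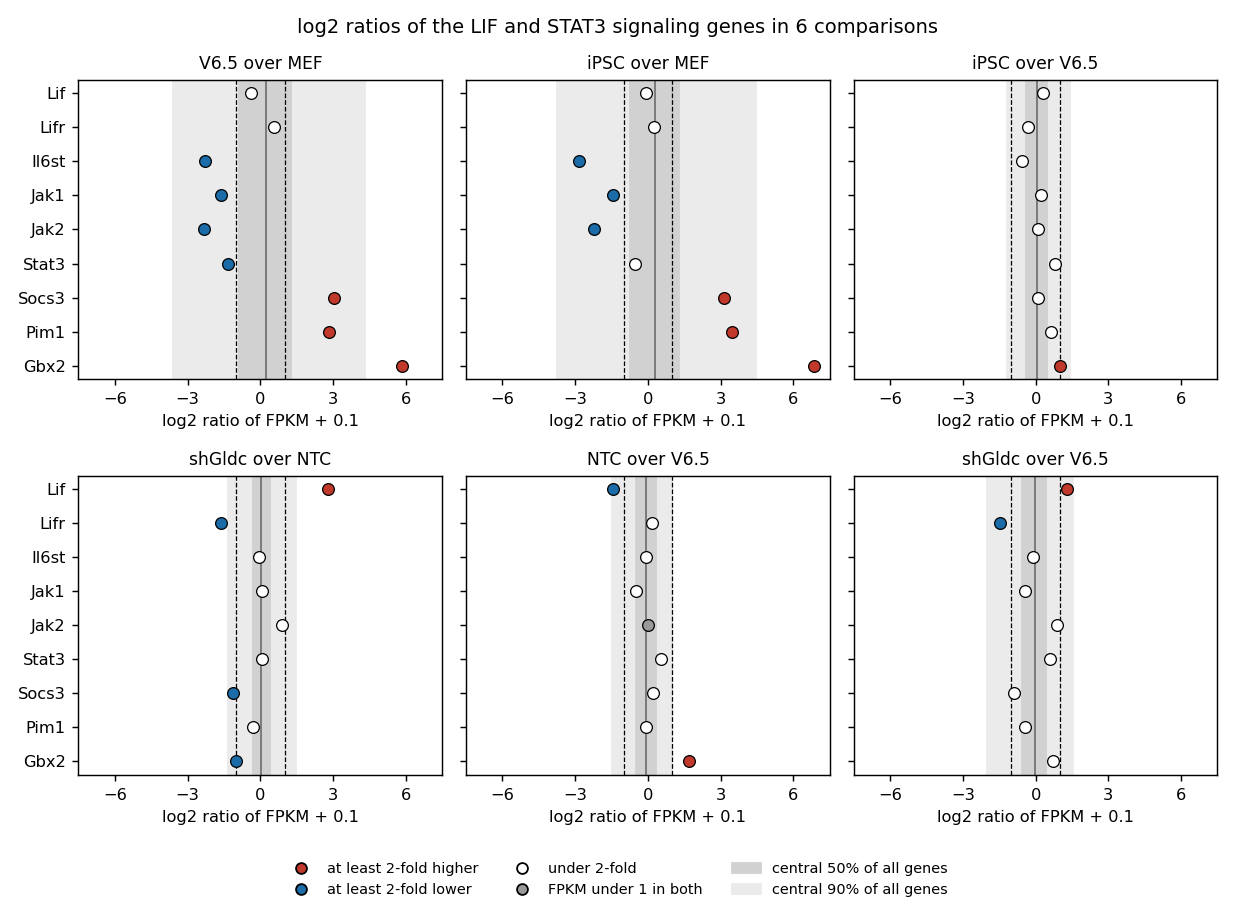
Log2 ratio of FPKM + 0.1 (horizontal axes) of each of the 9 genes in 6 comparisons, filled red or blue where at least 2-fold higher or lower, over grey bands for the central 50% and 90% of all genes compared and a line at their median. In V6.5 and iPSCs over MEFs the kinases and Il6st lie to the left and Socs3, Pim1, and Gbx2 to the right, and in shGldc over NTC, Lif (2.77) and Lifr (-1.62) lie outside the central 90% of genes.

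Socs3, Pim1, and Gbx2 stand downstream of STAT3. Their promoter windows are shown because these are the members whose mRNA was higher in pluripotent cells while Stat3 mRNA was not. Each window runs from 250 bases before to 50 bases after the RefSeq gene start, 5′ to 3′ on the gene's strand, from RefSeq annotation of GRCm38.p6. Pim1 has 2 windows in that table, and the one nearest to its annotated start was used. Capitals mark each match to TTCNNNGAA, the core pattern that STAT dimers bind, which reads the same on both strands.
Socs3 (chr11:117969317-117969616, minus strand): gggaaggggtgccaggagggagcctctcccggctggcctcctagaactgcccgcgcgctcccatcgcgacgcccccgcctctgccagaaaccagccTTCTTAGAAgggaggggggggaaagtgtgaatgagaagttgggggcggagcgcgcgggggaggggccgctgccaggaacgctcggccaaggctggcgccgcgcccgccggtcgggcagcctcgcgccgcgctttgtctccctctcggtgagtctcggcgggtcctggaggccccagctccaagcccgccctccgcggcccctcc
Pim1 (chr17:29490535-29490834, plus strand): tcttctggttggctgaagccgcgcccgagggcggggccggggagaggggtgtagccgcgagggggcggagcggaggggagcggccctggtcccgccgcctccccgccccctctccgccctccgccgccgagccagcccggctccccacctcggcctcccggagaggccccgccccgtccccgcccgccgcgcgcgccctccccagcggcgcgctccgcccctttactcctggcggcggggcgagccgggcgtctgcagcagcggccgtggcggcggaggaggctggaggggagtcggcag
Gbx2 (chr1:89931127-89931426, minus strand): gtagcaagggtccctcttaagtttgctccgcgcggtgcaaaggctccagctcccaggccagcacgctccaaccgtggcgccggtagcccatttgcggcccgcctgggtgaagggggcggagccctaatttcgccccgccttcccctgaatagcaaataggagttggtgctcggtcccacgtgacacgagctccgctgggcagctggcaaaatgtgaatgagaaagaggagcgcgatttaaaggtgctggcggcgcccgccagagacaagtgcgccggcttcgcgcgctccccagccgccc

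The pattern occurred once in the Socs3 window, as TTCTTAGAA, with its first base 154 bases before the start. It did not occur in the Pim1 or Gbx2 window, nor in those of the other 6 genes. Of all 32851 windows of this length in the RefSeq table, 2726 (8.3%) held it, so 1 of 9 members is near the background. Of the 16 further STAT3-responsive genes described below, 12 matched the table and 0 of their windows held the pattern. A match describes these letters and not a bound site.

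Socs3 (ENSMUSG00000053113, chr11:117966079-117970047, minus strand), the feedback inhibitor of gp130 and JAK, was at 10.3 FPKM in MEFs, 85.7 in V6.5, 91.3 in iPSCs, 98.8 in NTC, and 45.9 in shGldc. V6.5, iPSCs, and NTC were close, shGldc lay below them, and MEFs lay lowest. V6.5 was 8.32-fold above MEFs (interval 7.67 to 9.04) and iPSCs were 8.87-fold above (interval 8.17 to 9.64). The shGldc level was 2.15-fold below NTC (interval 2.03 to 2.28), a log2 ratio of -1.11, and 1.87-fold below V6.5. The largest and smallest levels lay 9.59-fold apart. No exon of Socs3 overlaps another annotated gene, and none of its 50-nt stretches was shared with another gene.

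Pim1 (ENSMUSG00000024014, chr17:29490753-29496112, plus strand), a serine/threonine kinase that favours survival and proliferation, was at 16.7 FPKM in MEFs, 119.7 in V6.5, 183.7 in iPSCs, 112.3 in NTC, and 89.7 in shGldc. It had the highest FPKM of the 9 genes in V6.5, iPSCs, NTC, and shGldc. V6.5 was 7.19-fold above MEFs (interval 6.75 to 7.66), iPSCs were 11.0-fold above MEFs, and iPSCs were 1.53-fold above V6.5. The shGldc level was 1.25-fold below NTC, less of a difference than for Socs3 and under the 2-fold limit. An antisense gene, Gm26885, which has no row in the tables, overlaps 14.5% of the Pim1 exon bases, so reads from it cannot be told apart from Pim1 without strand.

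Gbx2 (ENSMUSG00000034486, chr1:89927956-89931179, minus strand), a homeobox transcription factor that can sustain mESC self-renewal downstream of STAT3, had the widest range. Its level was 0.168 FPKM in MEFs, 15.4 in V6.5, 31.1 in iPSCs, 50.6 in NTC, and 25.1 in shGldc. MEFs stood far below the rest, and the pluripotent libraries were themselves spread, from V6.5 through shGldc and iPSCs to NTC. About 9 fragments stood behind the MEF value, so the 91.6-fold higher level in V6.5 has an interval of 47.4 to 198.3, and its log2 ratio of 5.85 became 3.81 with a pseudocount of 1. Gbx2 was 2.02-fold higher in iPSCs than in V6.5 (interval 1.85 to 2.2) and 2.01-fold lower in shGldc than in NTC (interval 1.84 to 2.2), both at the edge of the 2-fold limit. NTC was 3.28-fold above V6.5 (interval 3.01 to 3.57), which ranked 213 of 12048 from the top, and shGldc was 1.63-fold above V6.5. The direction for shGldc therefore depended on whether it was set beside NTC or beside V6.5. An antisense gene, D130058E05Rik, with no row in the tables, overlaps 43.5% of the Gbx2 exon bases on the other strand, so the Gbx2 values are uncertain where reads were counted without strand.

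Socs3 and Pim1, both already seen to be higher in pluripotent cells, were also set beside Stat3. The ratio of Socs3 to Stat3 FPKM was 0.181 in MEFs, 3.84 in V6.5, 2.36 in iPSCs, 3.06 in NTC, and 1.35 in shGldc. That of Pim1 to Stat3 was 0.293 in MEFs, 5.37 in V6.5, 4.74 in iPSCs, 3.48 in NTC, and 2.64 in shGldc. Both ratios were under 1 in MEFs and above 1 in every pluripotent library, which restates the levels given above. Among the pluripotent libraries both were lowest in shGldc. Gbx2 differed from this pattern. Its FPKM was below that of Stat3 in V6.5 (15.4 and 22.3), iPSCs (31.1 and 38.7), and shGldc (25.1 and 34.0), and above it in NTC (50.6 and 32.3).

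Markers of primitive endoderm, a lineage that mESC cultures can form, moved alongside the shGldc differences. The sum of 5 such markers was 46.1 FPKM in MEFs, 6.59 in V6.5, 19.0 in iPSCs, 4.07 in NTC, and 20.3 in shGldc. The MEF sum came mainly from Dab2 (25.9) and Pdgfra (15.8), while Gata4 was at 0.826 and Sox17 was listed at 0 there. Gata6 was at 0.462 in NTC and 8.22 in shGldc, Gata4 at 2.38 and 7.84, Dab2 at 0.928 and 2.26, and Pdgfra at 0.143 and 1.36. Sox17 stayed under 1 in both (0.16 and 0.656). Of 6 pluripotency markers, 0 differed by 2-fold in shGldc over NTC, beside 8.97% of all genes higher and 7.68% lower. Their median log2 ratio was -0.35, beside 0.04 for all genes. The part of these markers in the Lif, Lifr, Socs3, and Gbx2 differences was not tested.

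The wider pathway was described with 6 further lists. Of 11 other genes listed as ligands of the interleukin-6 family, 5 entered V6.5 over MEFs. Of these, 4 were lower, beside 23.3% of all genes, and 0 were higher, beside 30.3%. The lower genes included Clcf1 (2.43 FPKM in MEFs and 0.416 in V6.5), Il11 (1.5 and 0.24), and Cntf (1.37 and 0.483). These named genes were also lower in iPSCs over MEFs (0.889, 0.246, and 0.209 FPKM in iPSCs). They entered both comparisons through MEFs alone, so they could not count as higher. In shGldc over NTC, Osm, a ligand that also signals through gp130, was higher (0.534 and 1.39 FPKM). It was 1 of 3 ligands compared, beside 8.97% of all genes, and entered through shGldc alone. Lif was thus not the one ligand of the family with a higher value in shGldc.

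Of 6 other receptor genes, 5 entered V6.5 over MEFs, with Osmr, Il11ra1, and Il6ra lower, beside 23.3% of all genes, and Il27ra and Cntfr higher, beside 30.3%. Their median log2 ratio was -1.7, beside 0.25 for all genes, and it was -0.86 with a pseudocount of 1. Osmr, the chain that pairs with gp130 for oncostatin M, was at 17.3 FPKM in MEFs and 0.316 in V6.5, a log2 ratio of -5.39. Beside it Lifr, the related chain, had a log2 ratio of 0.57, so Lifr exceeded Osmr 6.8 times per length in V6.5 and Osmr exceeded Lifr 12.3 times in MEFs. Cntfr, the anchored chain that binds ciliary neurotrophic factor with LIFR and gp130, was at 7.46 FPKM in NTC and 2.3 in shGldc, a log2 ratio of -1.66, and was the 1 of 3 receptors lower in that comparison, beside 7.68% of all genes. Cntfr was already lower in NTC than in V6.5 (15.6). Il6ra was at 0.416 FPKM in V6.5, 3.39 in NTC, and 4.14 in shGldc, so the hairpin-bearing libraries resembled each other and not V6.5.

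Among the other JAK and STAT genes, Stat4 (listed at 0 FPKM in MEFs and 2.61 in V6.5) and Jak3 (2.91 and 33.1) were higher in V6.5 over MEFs, and Stat6 (26.8 and 9.55) and Stat5a (5.59 and 1.94) were lower. Jak3, a kinase best known from lymphoid cytokine receptors, exceeded both member kinases in V6.5 and was 8.02 FPKM in iPSCs.

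Of 14 negative regulators other than Socs3, 5 were higher in V6.5 over MEFs, beside 30.3% of all genes, and 2 were lower, beside 23.3%. Socs2 (1.23 and 13.7 FPKM) had the highest ratio, and the lower genes were Socs5 and Socs4. Their median log2 ratio was 0.45, beside 0.25 for all genes. In shGldc over NTC, 1 was lower, beside 7.68% of all genes. This was Cish (3.77 and 1.79 FPKM), a STAT5-induced relative of Socs3, and the median was -0.02, beside 0.04. Of 5 adaptors that carry gp130 signals to ERK, 1 was higher in V6.5 over MEFs, beside 30.3% of all genes, and 1 was lower, beside 23.3%. These were Gab1 (84.7 FPKM in V6.5 and 4.98 in MEFs) and Ptpn11 (18.5 and 41.0). In shGldc over NTC, 0 of 5 differed by 2-fold, beside 8.97% of all genes higher and 7.68% lower.

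**Figure D3:**
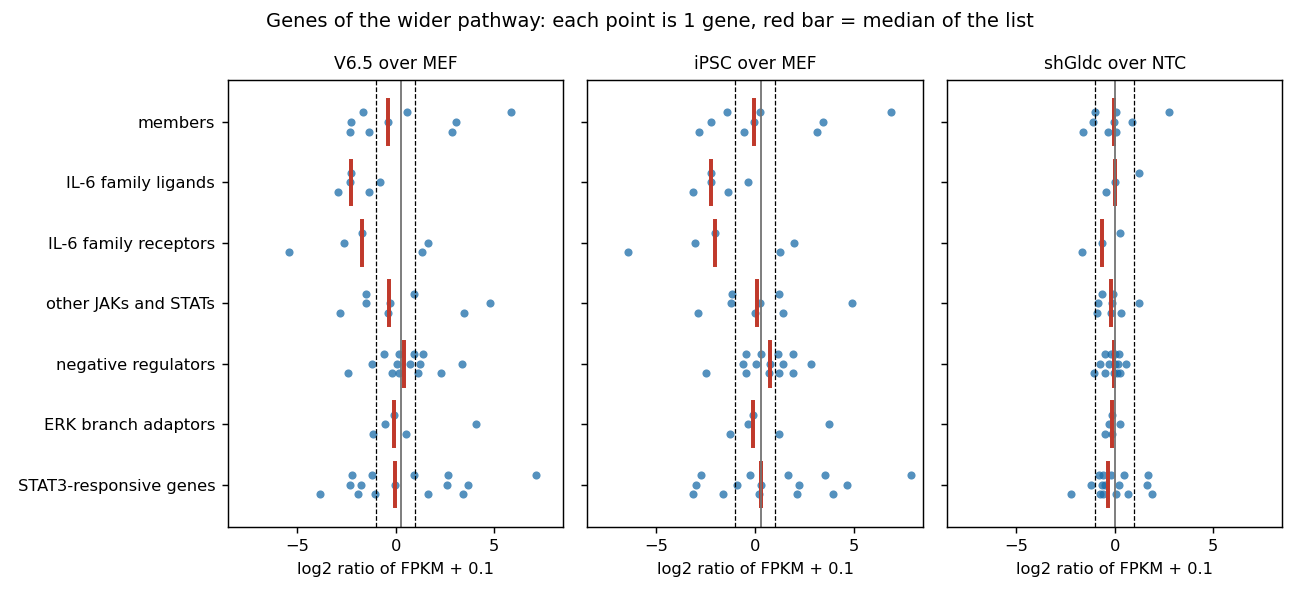
Log2 ratio of FPKM + 0.1 (horizontal axes) of the genes of 7 lists in 3 comparisons, 1 point per gene of at least 1 FPKM in either library, with a red bar at the median of the list, a grey line at the median of all genes, and dashed lines at 2-fold. Ligands other than Lif lie to the left in V6.5 and iPSCs over MEFs, where several of them entered through MEFs alone. In shGldc over NTC the medians of all lists lie within 2-fold.

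A list of 16 further genes that STAT3 is known to regulate in one cell type or another held genes that were higher and genes that were lower. In V6.5 over MEFs, 6 of 15 were higher, beside 30.3% of all genes, and 7 lower, beside 23.3%, with a median log2 ratio of -0.04 beside 0.25 for all genes. Tfcp2l1, a transcription factor that mediates LIF signals in mESCs, was at 0.0218 FPKM in MEFs and 16.9 in V6.5, and Pim2 and Pim3, relatives of Pim1, were at 0.995 and 13.2 in MEFs and 13.6 and 141.9 in V6.5. The lower genes included Myc, Cebpd, Cebpb, and Junb, which many cells induce on growth or inflammatory signals. All 3 Pim kinases were higher in V6.5 and in iPSCs than in MEFs.

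In iPSCs over V6.5, 6 of 15 of these genes were higher, beside 10.1% of all genes, and 1 was lower, beside 7.44%, with a median log2 ratio of 0.51 beside 0.04 for all genes. Klf5, a factor of the self-renewal network, was at 35.8 FPKM in V6.5 and 146.5 in iPSCs, and Klf4 was at 42.2 and 104.7. Myc was at 2.11 and 4.61. Whether this iPSC library carried vector copies of Klf4 or Myc was not tested. Socs3 differed by 1.07-fold between these libraries. Of the primitive endoderm markers, 3 of 4 were also higher in iPSCs over V6.5, namely Gata6 (0.646 and 4.46 FPKM in V6.5 and iPSCs), Sox17 (0.571 and 2.57), and Gata4 (3.52 and 9.99). Of 7 fibroblast markers, 4 were lower and 1 was higher, Twist1 (2.77 and 11.8). The part of these markers in the differences between iPSCs and V6.5 was not tested.

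In shGldc over NTC, 3 of 16 were higher, beside 8.97% of all genes, and 2 were lower, beside 7.68%. The higher genes were Pramel7, Cebpd, and Fos, and the lower genes were Ier3 and Myc. The median log2 ratio of the 16 was -0.33, beside 0.04 for all genes. Myc was at 2.11 FPKM in V6.5, 19.1 in NTC, and 8.3 in shGldc. Its direction for shGldc therefore depended on whether NTC or V6.5 was the control. Fos (2.1, 0.458, and 1.66) and Cebpd (5.18, 2.2, and 7.41) differed by under 2-fold between shGldc and V6.5. Pramel7, which LIF and STAT3 induce in mESCs, was at 0.0755 FPKM in V6.5, 1.85 in NTC, and 7.04 in shGldc, in the opposite direction to Socs3. Ier3, an immediate early gene, was at 27.5 FPKM in V6.5, 12.5 in NTC, and 2.61 in shGldc. Klf4 (54.5 and 36.6 FPKM in NTC and shGldc), Klf5 (96.0 and 60.6), and Tfcp2l1 (37.5 and 33.1) differed by under 2-fold.

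**Figure D4:**
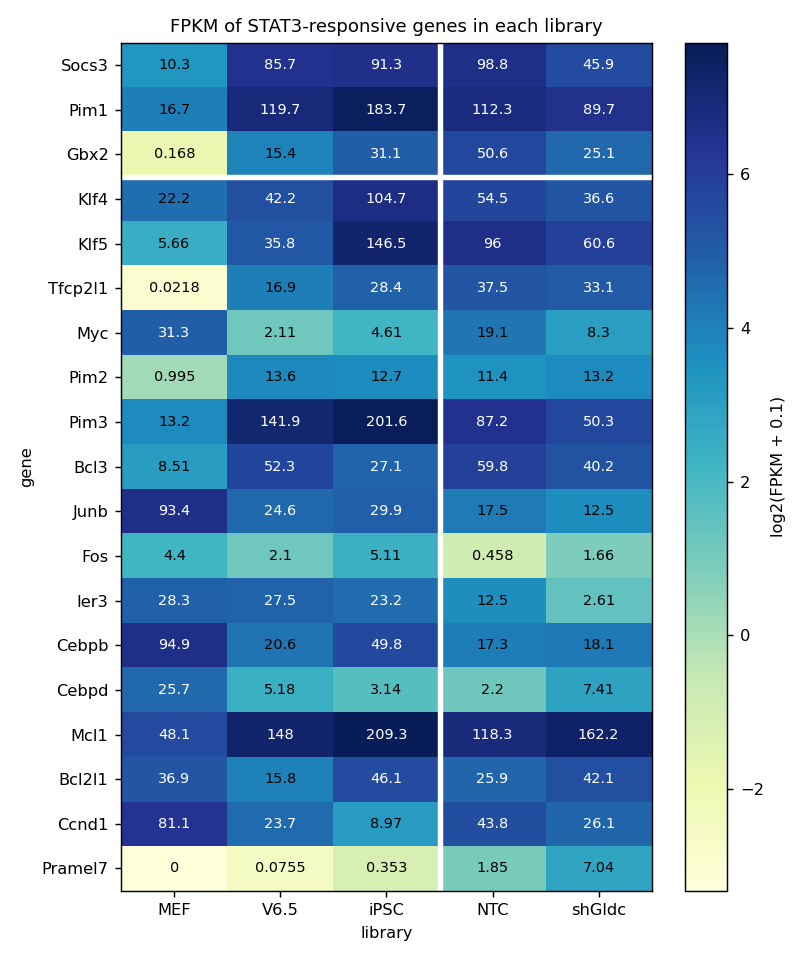
FPKM (printed in each cell) and log2(FPKM + 0.1) (colour) of Socs3, Pim1, and Gbx2, above the white line, and 16 further STAT3-responsive genes, below it, in 5 libraries, with a white line between the separately made tables. Socs3 in shGldc (45.9) lies between MEFs (10.3) and the other pluripotent libraries, while Pramel7 is highest in shGldc (7.04).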

How the data were processed

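RNA-seq was performed on 5 mouse libraries, 1 per group, grouped by the labels. The authors mapped reads to mm10 with TopHat2 2.1.0, assembled transcripts with StringTie 1.3.4d, and computed expression with Ballgown, and deposited FPKM values in 2 separately made tables. The submitters' processing notes name mm9 beside mm10. The annotation, the strand setting, and the filters are not given in the sources used here. FPKM values were used as deposited, without rescaling between libraries, on the log2(FPKM + 0.1) scale. Gene positions and exon overlaps came from GENCODE M21, and promoter windows came from RefSeq. Scripts (Python 3.11.15, pandas 2.3.3, scipy 1.17.1) were tested on simulated data.

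With 1 library per group no test was run. Every member was named in every library, and of each list the genes called or at the extremes of a comparison. Members, lists, and rules were chosen with earlier results of these data known. Of the promoters, those of Socs3, Pim1, and Gbx2 were printed. Other pseudocounts, filters, scalings, and fold limits were tried. Values of the lists' remaining genes were not printed. Some list genes are not reported here.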

Additional observations from a re-analysis of the deposited data

How the results depend on the processing

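No paired analysis was possible because each group was 1 library, and for the same reason no replicate could be left out. Over the alternatives, 263 of 270 member ratios stayed within 0.59 (log2) and 39 of 54 counts of members past the fold limit within 1.5 times of their values, and 15 counts moved further. No call reversed. The 7 member ratios that moved did so with a pseudocount of 1, which shrinks differences of low levels. In V6.5 over MEFs, Gbx2 went from 5.85 to 3.81 and Jak2 from -2.33 to -1.65. In iPSCs over MEFs, Gbx2 went from 6.86 to 4.78 and Jak2 from -2.22 to -1.6. In shGldc over NTC, Lif went from 2.77 to 1.89 and Lifr from -1.62 to -0.99, and in NTC over V6.5, Lif went from -1.46 to -0.86. At that pseudocount, the count of members past the limit was 0 instead of 1 in iPSCs over V6.5, 2 instead of 4 in shGldc over NTC (Lifr and Gbx2, at -0.98, drop out), 1 instead of 2 in NTC over V6.5, and 1 instead of 2 in shGldc over V6.5. Rescaling to equal FPKM sums, centring ratios on their median, and median-of-ratios scaling each gave 0 in iPSCs over V6.5, where Gbx2 fell just under 2-fold (0.94 to 0.99). With FPKM of at least 5, the count was 1 in NTC over V6.5 and 1 in shGldc over V6.5, since Lif or Lifr left the genes compared. At 1.5-fold it was 3 in iPSCs over V6.5 and 6 in shGldc over V6.5, and at 3-fold it was 0, 2, 1, and 0 in iPSCs over V6.5, shGldc over NTC, NTC over V6.5, and shGldc over V6.5. Rescaling moved the median of all genes by -0.25 to -0.32 in the comparisons with MEFs. In iPSCs over MEFs it made 24.6% of genes higher and 26.3% lower, in place of 31.5% and 21.3%, and the Lifr ratio there passed from 0.27 to -0.02. Gbx2 in MEFs, Lif in NTC, Lifr in shGldc, and Jak2 outside MEFs rest on 9 to 131 fragments each, and with single libraries no biological spread is known.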

Other observations

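For 3 members the genes with the most similar profile were found, by the Euclidean distance of log2(FPKM + 0.1), centred on its mean over 5 libraries, among 13656 genes of at least 1 FPKM in any library. For Socs3 these were Slc17a9, Faim2, and E2f2, at distances of 0.195, 0.216, and 0.278. Slc17a9, a nucleotide transporter of vesicles, was at 0.505 FPKM in MEFs, 4.06 in V6.5, 4.82 in iPSCs, 5.14 in NTC, and 2.47 in shGldc, so it was also lower in shGldc than in the other pluripotent libraries. For Lif they were Gm16062, Slc25a47, and Pyroxd1, at 0.482, 0.614, and 0.641. Pyroxd1 was at 2.79 FPKM in MEFs, 1.8 in V6.5, 2.64 in iPSCs, 0.625 in NTC, and 3.13 in shGldc. For Gbx2 they were Prr23a3, Cblc, and Apoa2, at 0.652, 0.702, and 0.705. Apoa2, an apolipoprotein, was at 0.0564 FPKM in MEFs, 8.68 in V6.5, 14.0 in iPSCs, 16.6 in NTC, and 9.65 in shGldc. The choice of neighbours depended on the settings. With a pseudocount of 1, 0 of 3 remained for Socs3, 1 for Lif, and 0 for Gbx2, and over the first 3 libraries alone 0 remained for each.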
